A study of Mus musculus with 24 samples.

Results

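PDGFRb-positive stromal cells of male gonadal white fat were compared between the subpopulations labelled FIP and APC. The male gonadal groups, M_FIP and M_APC, held 3 libraries each, and their 6 libraries were among 24 from the same study. Genes with a symbol that reached a value of 10 in 3 or more of the 6 libraries entered the comparison. They were 12970 of the 27179 rows in the table. All groups used here came from C57BL/6 mice, with cells sorted by flow cytometry for PDGFRb and total RNA sequenced in bulk. The male and female gonadal groups (M_FIP, M_APC, F_FIP and F_APC) came from gonadal white adipose tissue, and the male inguinal groups (M_DPP4_pos and M_DPP4_neg) from the inguinal depot. The labels give no age, diet or treatment for any group. The sort that separated FIP from APC is not given in the sources used here, nor is it stated whether the 3 libraries of a group came from separate animals. What the p-values measure is therefore library-to-library spread, and that spread may be technical.

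PDGFRb, a receptor for platelet-derived growth factor, marks cells around the blood vessels and in the stroma of fat, from which new adipocytes can form. In published work on mouse gonadal fat, APC stands for adipocyte precursor cells, which differentiate readily into adipocytes in culture. FIP stands there for fibro-inflammatory progenitors, which differentiate poorly and secrete matrix and inflammatory factors. These names are background, and the labels of the study do not expand them.

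Values are normalised counts, which are reads per gene divided by 1 factor per library. Fold changes compare M_FIP with M_APC as the difference of mean log2(value + 1), given with its standard error (±), so a positive value is higher in FIP. That scale understates the change of genes with low values. A gene was called, and is written as higher or lower, at a Benjamini-Hochberg adjusted p under 0.05 in limma over all 12970 genes. The M_FIP libraries held 13114690 to 15477738 reads and the M_APC libraries 10324560 to 11300524, so depth moved with the group, and its part in the results was not tested. Within a group the log2 values of the libraries correlated with r of 0.991 to 0.994 across genes, and between the groups with r of 0.941 to 0.948. The first principal component held 83.8% of the variance and separated the groups. The second held 5.25% and set M_APC replicate 2 apart from the other M_APC libraries.

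The surface genes of the sort were read first. Pdgfrb, the receptor used to sort every library, was at 2645, 3009 and 3075 in the FIP libraries and at 6277, 6045 and 6134 in the APC libraries. It was present in all 6 and lower in FIP by 1.08 ± 0.06 on the log2 scale. Pdgfra, the sister receptor carried by most fibroblast-like progenitors, was at 12965, 12842 and 12156 against 13023, 12149 and 12829, and these ranges overlapped (fold change -0.0014 ± 0.059). In published sorts of this tissue FIP cells carried LY6C, and APC cells lacked LY6C and CD9. Ly6c1 was at 3709.9, 3770.0 and 3484 against 338, 309 and 365, and Cd9, a tetraspanin, at 1662, 1998 and 1714 against 96.6, 123 and 129, with no overlap for either gene. Since these genes may have set the gate, the values are a check of the labels and not a result.

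Marker genes of other cells that a sort of fat could hold were summed in each library. Adipocyte markers summed to 381 to 427 normalised counts in FIP and 915 to 1173 in APC, and all 7 that were tested were lower in FIP, beside 24.5% lower and 23.9% higher of all genes tested. Macrophage markers summed to 522 to 725 in FIP and 886 to 1367 in APC, and 11 of 14 were lower. That count fell to 4 without M_FIP replicate 3 and to 6 without M_APC replicate 2. Mural cell markers summed to 10827 to 12348 in FIP and 29644 to 31513 in APC, most of it Steap4, a metalloreductase, at 8788, 9148 and 10147 against 27259, 26101 and 25934, and 8 of 11 were lower in FIP. Rgs5, a defining pericyte gene, was at 141, 161 and 138 against 162, 107 and 149 and was not called (fold change 0.091 ± 0.14). Endothelial markers went the other way, with sums of 6613 to 7748 in FIP and 4292 to 5036 in APC that did not overlap. Most of the FIP sum was Tek, an angiopoietin receptor, at 4234, 4195 and 4039 against 1707, 1619 and 1734 (fold change 1.30 ± 0.054). Of 11 endothelial markers 2 were higher, Tek and Kdr (0.38 ± 0.12). Kdr lost its call without M_FIP replicate 1 or 2 or M_APC replicate 2 (0.36, 0.25 and 0.26), in a fit on all 24 libraries and in limma without the trend (adjusted p = 0.19 and 0.12), and the defining genes Pecam1 and Cdh5 were not called (fold changes -0.077 and 0.0092). The 2 became 1 without M_FIP replicate 1 or 2 or M_APC replicate 2, and 3 without M_FIP replicate 3. Mesothelial markers summed to 3855 to 4176 in FIP and 2821 to 3176 in APC, also without overlap, most of it the transcription factor Wt1, which stromal cells of visceral fat carry too. Of 8 mesothelial markers tested 1 was higher, Wt1, at 3634, 3536 and 3473 against 2672, 2488 and 2693 (0.44 ± 0.055; not called in a fit on all 24 libraries, limma, adjusted p = 0.16), and the 1 became 2 without M_FIP replicate 3 or M_APC replicate 1. The mesothelial surface gene Msln was at 100.1, 99.0 and 69.9 against 95.5, 62.6 and 84.8. The T cell gene Cd3e and the epithelial genes Epcam and Krt5 were at or near 0 in all 6 libraries. Lymphocyte markers as a list summed to 10.4 to 19.6 in FIP and 44.0 to 101 in APC, and the 1 tested was lower (-2.47). Epithelial and epididymal markers summed to 55.3 to 62.4 in FIP and 21.5 to 29.4 in APC, with 1 of 2 tested higher (4.71). Of 5 Schwann and neural markers tested 1 was higher and 2 lower, and of 3 erythroid markers none was called. In bulk libraries, fewer cells of a type and less RNA per cell cannot be told apart, and the part of these cells in the results below was not tested.

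Mast cell genes, which are outside these lists, were chosen after their values were seen. Tpsb2 and Mcpt4, proteases stored in the granules of mast cells, had 0 reads in all 3 FIP libraries. Tpsb2 was at 34.3, 109 and 80.3 in the APC libraries and Mcpt4 at 38.6, 71.9 and 69.0. Against a floor of 3 reads over the FIP group, Tpsb2 was at least 84.4-fold lower and Mcpt4 at least 67.8-fold lower in FIP, bounds that cover counting error only. Cma1 and Cpa3, which encode 2 more mast cell proteases, had 1 and 2 reads in FIP against 184 and 82 in APC. Some other mast cell genes had few or no reads in both groups, and Kit was not among these. Tpsab1, a further protease gene, had 0 reads in FIP and 17 in APC. The receptor genes Ms4a2 and Fcer1a had 0 in FIP, with 2 and 6 in APC. Kit, a receptor of mast cells and of other cells, was at 28.3, 26.8 and 21.9 in FIP and 44.0, 32.5 and 32.8 in APC. Of the other groups, Tpsb2 lay between 36.8 and 82.6 in the inguinal M_DPP4_neg libraries and reached at most 2.26 in M_DPP4_pos, 3.98 in F_FIP and 3.57 in F_APC. RNA of mast cells held in the sort and RNA of the APC themselves cannot be told apart in these values.

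Of the 12970 genes, 6276 were called (48.4%), 3094 higher in FIP (23.9%) and 3182 lower (24.5%). Past a 2-fold difference there were 734 higher and 700 lower genes. All 3 FIP libraries lay above all 3 APC libraries for 3502 genes (27.0%), and the reverse held for 3764 (29.0%). These shares are the background of every list count below. The median fold change of all genes was -0.025. Without M_APC replicate 2, 6210 genes were called, of which 5753 were among the 6276.

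**Figure D1:**
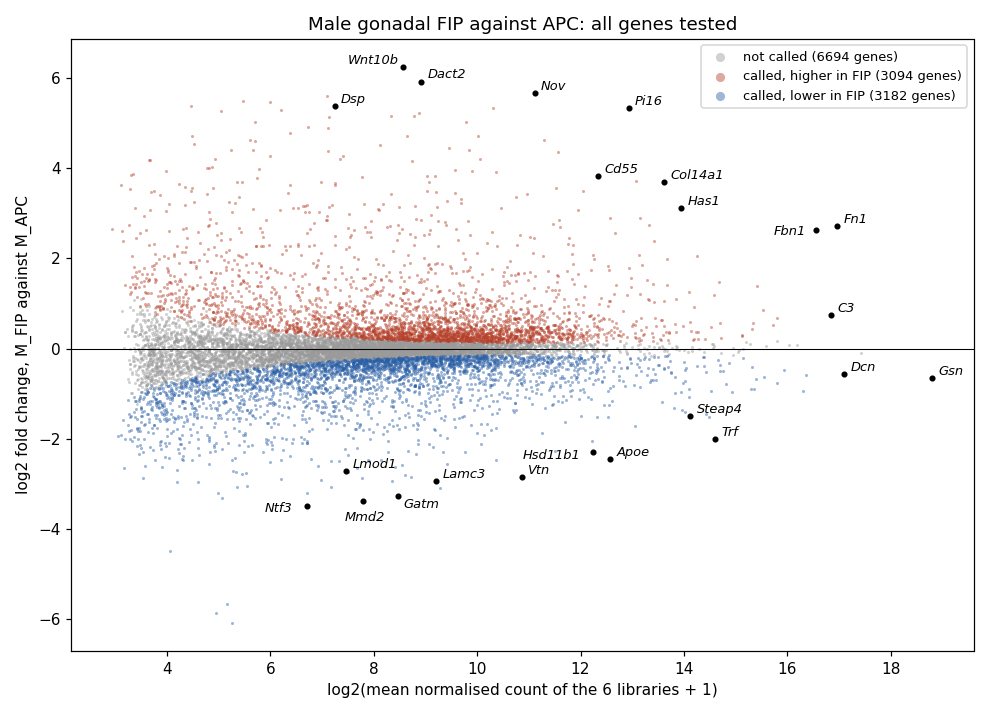
Each point is 1 of the 12970 genes tested. The horizontal axis is the log2 of the mean normalised count of the 6 libraries plus 1, and the vertical axis the log2 fold change of M_FIP against M_APC. Red genes were called higher in FIP (3094), blue genes lower (3182) and grey genes not called. Pi16, Cd55 and Fn1 are far above 0 at high levels, and the 4 lowest points at the left are the mast cell protease genes.

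The 12 genes with the largest rise, among called genes without overlap and with a mean of at least 100 in FIP, had fold changes from 5.15 to 6.25. Wnt10b (chr15:98770712-98778206, GRCm38.p6), a WNT ligand that blocks adipogenesis, was at 788, 765 and 691 in FIP and 6.44, 9.27 and 11.3 in APC, a fold change of 6.25 ± 0.16 (limma, adjusted p = 3.9e-17). Dact2 (chr17:14195230-14204327), a cytoplasmic regulator of WNT and TGF-beta signalling, was at 977, 985 and 887 against 10.7, 15.1 and 19.2 (fold change 5.93 ± 0.15). Both genes were low in every APC library. Nov, also named Ccn3, encodes a matricellular protein and was at 4299, 4329 and 4403 against 61.2, 93.9 and 106 (fold change 5.66 ± 0.13). Bmp7, a bone morphogenetic protein, was at 639.6, 641 and 593 against 16.1, 15.1 and 18.1 (fold change 5.17 ± 0.12), and Edn1, the vasoconstrictor peptide endothelin 1, at 929.6, 813 and 810.1 against 34.3, 22.0 and 15.8 (fold change 5.15 ± 0.18). Pi16, a peptidase inhibitor that marks a fibroblast state found across organs, was the most abundant of the 12 at 16023, 16134 and 13617 against 326, 386 and 423 (fold change 5.33 ± 0.081). Sema3e, a guidance cue, rose by 5.22, the desmosome protein gene Dsp by 5.38, the mitochondrial calcium-binding gene Efhd1 by 5.34, and Duoxa1, the maturation factor of a hydrogen peroxide-producing oxidase, by 5.30. Fam167a and the pseudogene Trim30e-ps1 completed the 12, at 5.61 and 5.47.

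The 12 genes with the largest fall by the same rule, with a mean of at least 100 in APC, had fold changes from -3.50 to -2.86, and the mast cell genes given above are below that mean. Ntf3 (chr6:126101412-126166772), the neurotrophin 3 gene, was at 15.1, 13.4 and 20.3 in FIP and 179, 216 and 181 in APC, a fold change of -3.50 ± 0.18 (limma, adjusted p = 1.4e-12). Gatm (chr2:122594473-122611277), the first enzyme of creatine synthesis, was at 57.6, 54.4 and 88.6 against 721, 585 and 603 (fold change -3.26 ± 0.14). Lamc3, a laminin gamma chain of basement membranes, was at 115, 136 and 154 against 1128, 938 and 1066 (fold change -2.95 ± 0.10). For Ntf3 and Gatm, FIP replicate 3 was the highest of the FIP libraries. Dio3, the deiodinase that inactivates thyroid hormone, fell by 2.88, Cntfr, the receptor of ciliary neurotrophic factor, by 2.87, and Pde11a, a cyclic nucleotide phosphodiesterase, by 2.86. Dok7, an activator of the muscle-specific kinase at nerve-muscle synapses, fell by 2.93. Mmd2, Reep6, Lrrn1, St8sia6 and Shisa6 were the other 5, at -3.38, -3.21, -3.09, -3.06 and -2.91.

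The 6 genes with the largest difference of mean in each direction, by the same rule, included genes of the matrix, of complement, of the cytoskeleton and of iron transport. Fn1, fibronectin, was at 212205, 230864 and 222429 in FIP and 32122, 32581 and 36296 in APC (fold change 2.72 ± 0.087). Fbn1, the microfibril protein fibrillin 1, was at 149307, 178501 and 171736 against 25778, 25767 and 29343 (fold change 2.63 ± 0.089). C3, the central complement component, Fstl1, a follistatin-like secreted glycoprotein, Timp2, an inhibitor of metalloproteinases, and Nid1, nidogen of basement membranes, were higher by 0.74, 1.397, 0.85 and 0.67. In the other direction Gsn, the actin-severing protein gelsolin, was at 347140.0, 358536 and 369270.0 against 553170.0, 581797 and 546178 (fold change -0.65 ± 0.13). Trf, transferrin, was at 8732, 8576 and 12955 against 39292, 41323 and 38529 (fold change -2.00 ± 0.11), with FIP replicate 3 above the other FIP libraries and below every APC library. Dcn, the collagen-binding proteoglycan decorin, Col4a1, a chain of basement membrane collagen, Hspg2, perlecan, and Fosb, a stress-induced transcription factor, fell by 0.56, 0.93, 0.77 and 0.58.

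**Figure D2:**
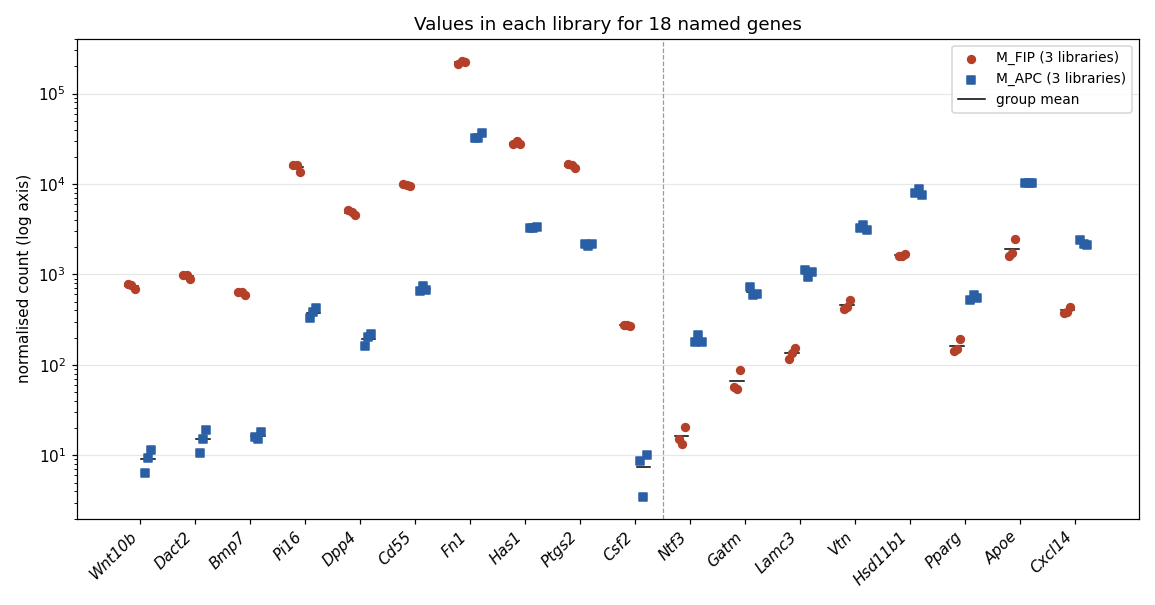
Normalised counts on a log axis of 18 named genes in each of the 3 M_FIP (circles) and 3 M_APC (squares) libraries, with black bars at the group means. The dashed line separates 10 genes higher in FIP from 8 lower in FIP. The groups are apart for every gene shown, and the within-group spread is widest for genes near 10 counts, such as Csf2 in M_APC.

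Genes known from DPP4-positive interstitial progenitors, cells that lie in the septa of fat and stand early in its lineage, were higher in FIP. All 18 of the list were called higher, with a median fold change of 3.46 against -0.025 over all genes, and no member had an overlap between groups. Ly6c1, which may have set the gate, is 1 of the 18, and the list was chosen with earlier results of these data known. Dpp4 itself, a membrane dipeptidase, was at 5096, 4880.4 and 4483 against 159.9, 204 and 218 (fold change 4.64 ± 0.088). Cd55, which protects cells from complement, was at 10024, 9649 and 9465 against 650.4, 738 and 677 (fold change 3.82 ± 0.058). Il33, an alarmin cytokine, was at 522, 466 and 456 against 46.1, 48.7 and 76.9 (fold change 3.09 ± 0.15), and Wnt2 at 56.7, 98.1 and 68.3 against 5.37, 2.32 and 15.8 (fold change 3.37 ± 0.40). The 18 fold changes ran from 0.97 to 5.93, so that the members were not raised alike.

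Genes of committed preadipocytes went mostly the other way. Of 16 tested, 13 were lower and 2 higher, with a median of -1.15. Apoe, the lipid-carrying apolipoprotein E, was at 1598, 1720.5 and 2437 against 10229.6, 10361 and 10210.0 (fold change -2.44 ± 0.10). Col15a1, a collagen of the basement membrane zone, was at 10370.3, 12141 and 13071 against 35651, 30400.4 and 35777 (fold change -1.52 ± 0.083). The exceptions were Icam1, an adhesion molecule often used to sort committed preadipocytes, at 9836, 10009 and 9638 against 7196, 6129.7 and 6889 (fold change 0.55 ± 0.062), and Zfp423, a determinant of preadipocytes, at 270.2, 266 and 245 against 145, 139 and 150.5 (fold change 0.84 ± 0.094). Markers of the F3-positive stromal population, described elsewhere as holding back adipogenesis, were split, with 3 of 7 higher and 3 lower. F3, tissue factor, was lower by 0.57, and Mgp, matrix Gla protein, higher by 1.66. The count of 3 higher became 1 without M_FIP replicate 2.

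Pparg, the master regulator of adipocyte formation, was at 142, 149.8 and 193 in FIP and 527, 589 and 551 in APC (fold change -1.79 ± 0.10). Its partner Cebpa was at 568, 541 and 627 against 1311, 1252 and 1283 (fold change -1.15 ± 0.065), and Klf15, a further activator, was lower by 1.59. Of 17 adipogenic transcription factors 9 were lower and 5 higher, the latter 3 without M_FIP replicate 2. Among 11 factors that inhibit adipogenesis 5 were higher and 4 lower. Klf3 rose by 1.07 and Hes1, a Notch target, by 0.95, while Sox9, a chondrogenic factor, fell by 1.12. Most genes of lipid handling were lower in FIP. Of 22 genes for lipid uptake and storage 19 were lower and 1 higher (median -1.10). Plin2, which coats lipid droplets, was at 999, 1019 and 1115 against 3631, 4228 and 3714 (fold change -1.88 ± 0.065), and Fabp4, a fatty acid carrier, at 3626, 4217 and 3692 against 8065, 9971 and 7849 (fold change -1.16 ± 0.079). Of 13 fatty acid synthesis genes 10 were lower and 1 higher, the latter 2 without M_FIP replicate 3 or M_APC replicate 1. Fasn, the fatty acid synthase, fell by 0.75 and Mlxipl, a glucose-sensing activator of these genes, by 2.19. Cholesterol synthesis genes were lower in 10 of 20 and higher in 2, with Sqle, squalene epoxidase, lower by 0.82. The 7 adipocyte markers tested are all in the lipid storage list as well, and the part of adipocyte RNA in its count was not tested.

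WNT ligands rose more often than they fell, and WNT antagonists went in both directions. Of 9 WNT ligands tested 5 were higher and 2 lower. After Wnt10b and Wnt2, Wnt11 was at 1537, 1444 and 1309.8 against 547, 428 and 457 (fold change 1.59 ± 0.082) and Wnt2b rose by 1.63, while Wnt4 fell by 1.16. The 2 lower ligands became 1 without M_FIP replicate 2 or 3 or M_APC replicate 2 or 3. Among 11 WNT antagonists and modulators 6 were higher and 5 lower. Sfrp4, a secreted decoy for WNT ligands, was at 1554, 1876 and 1723 against 52.6, 52.2 and 50.9 (fold change 5.02 ± 0.086), and Sfrp2 at 3310.3, 3029.8 and 3044 against 253, 350.1 and 316 (fold change 3.36 ± 0.087). Rspo3, an R-spondin that strengthens WNT signalling, was lower by 1.83. WNT receptors and targets were split, with 6 of 14 higher and 7 lower. Axin2, the usual readout of the canonical pathway, rose by 0.55 ± 0.14, and Nkd1, another feedback target, fell by 1.16 ± 0.12.

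BMP and TGF-beta ligands differed by member. Of 20 genes for BMP ligands, antagonists and targets 9 were higher and 8 lower. Bmp6 was at 982, 1096 and 1103 against 132, 160.0 and 155 (fold change 2.83 ± 0.084) and Bmp2 at 1684, 1715 and 1584 against 449.7, 330.4 and 369 (fold change 2.12 ± 0.085). Bmp4, a ligand that commits cells to the adipocyte lineage, was at 139, 152 and 165 against 296, 355 and 333 (fold change -1.11 ± 0.10), and the antagonist Nog was lower by 1.54. Of 20 TGF-beta and activin genes 12 were higher and 6 lower. Tgfb2 was at 1288, 1365 and 1329 against 269, 250.4 and 225 (fold change 2.42 ± 0.073), whereas Tgfb1 fell by 0.32. The receptor Tgfbr2 rose by 1.21 and Inhbb, an activin subunit, by 1.83. CCN family genes rose with Nov: Ctgf, also named Ccn2, was at 3113, 3941 and 3477 against 577, 672 and 630.1 (fold change 2.48 ± 0.076). Postn, the matricellular protein periostin, rose by 1.52. The smooth muscle genes Acta2, Tagln and Lmod1 fell by 0.68, 0.71 and 2.73. For Acta2 the groups overlapped, at 107, 102 and 71.5 against 197, 101 and 163, and its call was lost without M_APC replicate 1 (-0.48, limma, adjusted p = 0.063), in a fit on all 24 libraries (adjusted p = 0.071), with DESeq2 (adjusted p = 0.071) and in limma without the trend (adjusted p = 0.092).

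Growth factor genes went in both directions. Igf1, the main local growth factor, was at 3563, 3370.5 and 3778 against 9026, 8258 and 8178 (fold change -1.25 ± 0.06). The binding protein gene Igfbp5 was at 5017, 5092 and 4642 against 808, 596 and 783 (fold change 2.76 ± 0.085), and Igfbp6 rose by 1.36. Pappa, a protease that frees IGF from its binding proteins, fell by 2.30, while its relative Pappa2 rose by 2.28. In the IGF list 5 of 15 were higher and 7 lower. Of 15 FGF genes 5 were higher and 7 lower, with Fgf18 higher by 2.99 and Fgf2 by 1.84, and the receptor-like Fgfrl1 lower by 1.64. In hedgehog signalling 3 of 11 were higher and 4 lower. Gli1, a target of the pathway, rose by 1.59 ± 0.20, Hhip, a decoy receptor and also a target, fell by 2.78 ± 0.22, and the receptor Ptch1 was not called (-0.15 ± 0.14).

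Retinoid and steroid genes were split by enzyme. Rdh10, the first step from retinol towards retinoic acid, was at 1385, 1469.8 and 1471 against 382, 409 and 442 (fold change 1.81 ± 0.067). Dhrs3, which runs the reverse step, fell by 1.06, and Aldh1a1, a retinaldehyde dehydrogenase, by 0.80. Of 14 retinoid genes 6 were higher and 7 lower. Hsd11b1, which regenerates active glucocorticoid inside cells, was at 1605, 1616 and 1681 against 8019.9, 8767 and 7489 (fold change -2.30 ± 0.06). Sult1e1, which inactivates oestrogen, was abundant in both groups and fell by 0.74. The oestrogen receptor gene Esr1 rose by 0.37 ± 0.091. Of 14 steroid genes 6 were higher and 7 lower.

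Neurotrophic genes also went in both directions. Beside the fall of Ntf3 and Cntfr, Gfra2, the co-receptor of neurturin, was at 227, 282 and 288 against 3.22, 13.9 and 10.2 (fold change 4.90 ± 0.31). Of 13 neurotrophic genes 5 were higher and 6 lower. Axon guidance genes leaned to FIP, with 15 of 25 higher and 5 lower (median 0.71). Besides Sema3e, the class 3 semaphorins Sema3c and Sema3d were at 7843, 8065 and 7308 against 685, 665 and 707 and 1222, 1128 and 928 against 68.7, 83.5 and 74.7 (fold changes 3.49 ± 0.057 and 3.83 ± 0.10). Islr2, a membrane protein of growing axons, rose by 4.41 and Ntn4, a netrin, by 2.35.

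**Figure D3:**
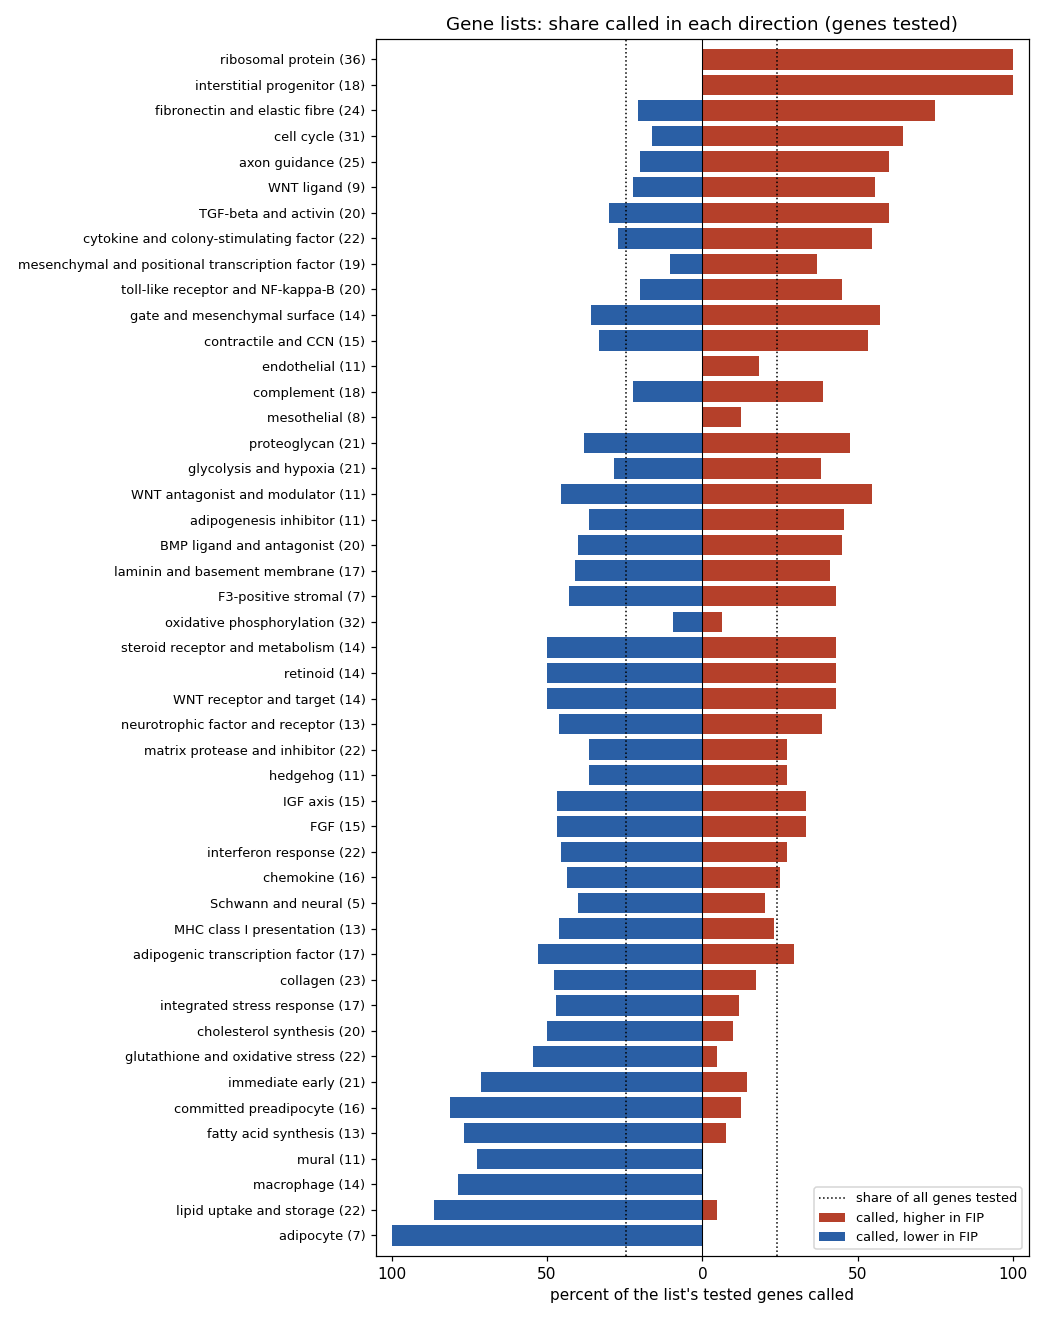
Each bar pair gives, for 1 gene list, the percent of its tested genes called higher (red, to the right) and lower (blue, to the left) in M_FIP, with the number tested in parentheses. The dotted lines mark the shares of all genes tested, 23.9% higher and 24.5% lower. The ribosomal protein and interstitial progenitor lists are wholly on the right and the adipocyte marker list wholly on the left. Lists with fewer than 5 genes tested are not drawn.

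Fibronectin and elastic fibre genes were mostly higher in FIP, and collagen genes more often lower. Of 24 fibronectin and elastic fibre genes 18 were higher and 5 lower (median 0.62). Besides Fn1 and Fbn1, Thbs2, a thrombospondin, rose by 2.27, Eln, elastin, by 1.05, and Mfap4, a microfibril-associated glycoprotein, by 2.89. Vtn, the adhesive protein vitronectin, was at 419, 439 and 518 against 3232, 3494 and 3130.3 (fold change -2.84 ± 0.072). Of 23 collagen genes 4 were higher and 11 lower. Col14a1, a fibril-associated collagen, was at 22684, 24616 and 22712 against 1584, 1852 and 1965 (fold change 3.70 ± 0.07), and Col8a1 and Col12a1 rose by 3.83 and 2.02. The chains of collagen I were not called, with Col1a2 at 0.078 ± 0.094 and Col1a1 at 50339, 62800.1 and 69276 against 50235, 52489.6 and 58749 (fold change 0.17 ± 0.10). Without M_FIP replicate 1, the lowest FIP library for it, Col1a1 was called higher (0.30, limma, adjusted p = 0.013). The basement membrane collagen genes Col4a3 and Col4a1 fell by 1.50 and 0.93. Of 17 laminin and basement membrane genes 7 were higher and 7 lower, with Egflam, pikachurin, lower by 1.78 and Lamb3 higher by 2.73.

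Both hyaluronan synthase genes named here were higher in FIP. Has1, a hyaluronan synthase, was at 27882, 29578 and 27476 against 3245, 3245 and 3349 (fold change 3.11 ± 0.057), and Has2 at 6142, 5846 and 5388 against 1682, 1489.5 and 1536 (fold change 1.88 ± 0.062). Prg4, the lubricating proteoglycan 4, rose by 2.94 and Aspn, asporin, by 2.05, and in the proteoglycan list 10 of 21 were higher and 8 lower. Of 22 matrix proteases and inhibitors 6 were higher and 8 lower. Adamts16 was at 1377, 1505 and 1418 against 79.4, 90.4 and 105 (fold change 3.96 ± 0.092), and Mmp2, the gelatinase of stromal cells, at 9781, 10548 and 11849.5 against 20857, 20986 and 21024 (fold change -0.97 ± 0.068).

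Inflammatory genes included some of the largest rises and some that were not called. Csf2 (chr11:54247270-54249899), which encodes the growth factor GM-CSF, was at 275, 277 and 267 in FIP and 8.59, 3.48 and 10.2 in APC (fold change 5.13 ± 0.25). Ptgs2, the inducible prostaglandin synthase, was at 16646, 16382 and 14959 against 2186, 2070.3 and 2149 (fold change 2.90 ± 0.057). Tnfrsf11b, the decoy receptor osteoprotegerin, was at 655, 813 and 826 against 26.8, 38.3 and 21.5 (fold change 4.71 ± 0.16). Il6, an acute-phase cytokine abundant in both groups, was at 9908, 9235 and 9112 against 9047, 8957 and 8425 and was not called (fold change 0.10 ± 0.058). Of 22 cytokine and colony-stimulating factor genes 12 were higher and 6 lower, among them Il11 and the interleukin 13 receptor gene Il13ra1, higher by 1.92 and 1.79. Of 20 toll-like receptor and NF-kappa-B genes 9 were higher and 4 lower. Tlr2, a receptor of bacterial lipoproteins, rose by 1.64, and the inhibitors Nfkbie and Irak3 by 1.53 and 1.22.

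Chemokine genes went in both directions, with 4 of 16 higher and 7 lower. Ccl2, which attracts monocytes, was at 25602, 24681 and 23029.5 against 13728, 13104 and 11882 (fold change 0.92 ± 0.068). Cxcl2, which attracts neutrophils, was at 2906, 2938 and 2844 against 656, 536 and 587 (fold change 2.29 ± 0.067). Its neighbour and close relative Cxcl1, chosen after its values were seen, was at 40150.0, 39795 and 38824 against 38126, 35220.2 and 33995 and was not called by limma (fold change 0.15 ± 0.071), although the groups did not overlap and both count models called it. Cxcl14 was at 376, 384 and 441 against 2431, 2187 and 2102 (fold change -2.48 ± 0.072), and Cxcl12, the stromal factor that retains blood progenitors, at 1856, 1854 and 2196 against 4469, 4587 and 4246 (fold change -1.17 ± 0.065).

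NF-kappa-B, the factor downstream of toll-like receptors, binds the kappa-B element, and its consensus was searched in the bases before the start of each gene. The 250 bases upstream of the RefSeq start (GRCm38.p6) were read on both strands for 10115 of the 12970 genes, and 896 of these (8.86%) held a match. Of the NF-kappa-B list 15 of 20 genes had a promoter entry and 6 held a match, of the chemokine list 11 of 16 with 4 matches, and of the cytokine list 17 of 22 with 3 matches. The 200 bases before the start of 5 of these genes are given 5′ to 3′ on the gene's strand, with the matched bases in capitals. They are shown because Cxcl1 and Cxcl2 hold the same 11 matched bases with different fold changes, and because Il6 was not called while Tlr2 and Nfkbie rose.
Cxcl1 (chr5:90891045-90891244, plus strand): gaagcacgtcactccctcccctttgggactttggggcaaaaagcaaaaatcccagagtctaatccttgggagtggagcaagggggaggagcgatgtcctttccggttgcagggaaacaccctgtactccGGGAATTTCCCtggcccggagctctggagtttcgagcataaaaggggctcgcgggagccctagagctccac
Cxcl2 (chr5:90903699-90903898, plus strand): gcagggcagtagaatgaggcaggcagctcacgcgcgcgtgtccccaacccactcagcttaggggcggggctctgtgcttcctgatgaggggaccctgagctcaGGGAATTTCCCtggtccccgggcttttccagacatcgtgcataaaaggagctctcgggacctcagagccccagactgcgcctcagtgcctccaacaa
Il6 (chr5:30012914-30013113, plus strand): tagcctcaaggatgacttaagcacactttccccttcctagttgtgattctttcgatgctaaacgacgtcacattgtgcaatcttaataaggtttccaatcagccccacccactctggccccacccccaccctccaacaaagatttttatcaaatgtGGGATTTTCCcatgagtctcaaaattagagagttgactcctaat
Tlr2 (chr3:83841609-83841808, minus strand): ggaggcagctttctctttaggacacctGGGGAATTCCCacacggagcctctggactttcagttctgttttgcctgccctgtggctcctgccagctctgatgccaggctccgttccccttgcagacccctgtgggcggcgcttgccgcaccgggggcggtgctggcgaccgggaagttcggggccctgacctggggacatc
Nfkbie (chr17:45555500-45555699, plus strand): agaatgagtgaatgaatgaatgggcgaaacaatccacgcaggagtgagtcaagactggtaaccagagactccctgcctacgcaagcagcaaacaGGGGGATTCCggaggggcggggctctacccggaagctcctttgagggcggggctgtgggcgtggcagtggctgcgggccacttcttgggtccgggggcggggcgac

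In Cxcl1 the matched stretch begins 71 bases before the start and in Cxcl2 97 bases before it, and each is read as overlapping matches on both strands. Of the matched genes not shown, Lif, Csf1 and Nfkbia were higher in FIP, Ccl9 and Cxcl10 lower, and Tlr3, Nfkb2 and Tnfaip3 not called. Csf2, Ptgs2 and Irak3, all higher in FIP, held no match in their 250 bases. A match is a string of letters and says nothing on binding.

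Complement, interferon and antigen presentation genes were mixed. Of 18 complement genes 7 were higher and 4 lower. C7, a late component, fell by 1.07. Of 22 interferon response genes 6 were higher and 10 lower, with the antiviral genes Mx2 and Ifit1 lower by 1.48 and 0.84 and Gbp2, a guanylate-binding protein, by 1.06. Of 13 genes for antigen presentation by MHC class I 3 were higher and 6 lower, and the 3 became 1 without M_FIP replicate 2 or M_APC replicate 3. H2-K1 was not called (0.079 ± 0.054) and Tap1, a peptide transporter, was lower by 0.80. H2-Q4 fell by 1.13, but has near-identical copies among which reads could be split.

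Most cell cycle genes were higher in FIP. Of 31 cell cycle genes 20 were higher and 5 lower (median 0.63), and the 5 became 3 without M_APC replicate 1 or 2 and 2 without M_FIP replicate 2. With a minimum value of 50 in place of 10, where genes with lower values were not tested, the 20 became 12. Mki67, the proliferation antigen, was at 239, 299 and 322 against 94.4, 139 and 105 (fold change 1.34 ± 0.13), and Top2a, a topoisomerase of dividing cells, at 193, 286 and 314 against 90.1, 86.9 and 87.1 (fold change 1.55 ± 0.14). FIP replicate 1 was the lowest FIP library for both genes and was still above every APC library. All 36 ribosomal protein genes were called higher, by a median of 0.41, and 35 had no overlap between the groups. Of all genes tested 23.9% were called higher, and for 27.0% all FIP libraries lay above all APC libraries. Rpl5 was at 4597, 4263 and 3875 against 2659, 2957 and 2414 (fold change 0.67 ± 0.072) and Rplp0 at 9693, 9561 and 9222 against 7516, 7987 and 6982 (fold change 0.34 ± 0.06). Ribosomal protein genes have many near-identical pseudogenes, so reads could be split among copies. Of 32 oxidative phosphorylation genes 2 were higher and 3 lower beside 48.4% of all genes called. The 2 became 5 without M_APC replicate 2 and 0 without M_FIP replicate 1, M_APC replicate 1 or M_APC replicate 3. The 3 became 1 without M_FIP replicate 2 or 3.

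Immediate early and oxidative stress genes were mostly lower in FIP. Of 21 immediate early genes 15 were lower and 3 higher, and such genes also respond to the dissociation of tissue. Jun was at 18891, 21096 and 23712 against 38379, 43322 and 41333 (fold change -0.95 ± 0.081) and Fos at 16320.2, 17992 and 19796 against 23052, 29190.2 and 25106 (fold change -0.51 ± 0.084). The exception with the largest rise was Nr4a1, an orphan nuclear receptor, at 13814, 15213 and 14602 against 3393, 3398 and 3529.7 (fold change 2.08 ± 0.056). Of 22 glutathione and oxidative stress genes 12 were lower and 1 higher. Gpx3, the secreted glutathione peroxidase, was at 12047, 11035 and 12528 against 32302, 34528 and 30139 (fold change -1.44 ± 0.07), and Hmox1, haem oxygenase 1, fell by 1.07. In the integrated stress response 8 of 17 were lower and 2 higher, with Psat1, an enzyme of serine synthesis, at 577, 573 and 654 against 2208, 1987 and 1961 (fold change -1.77 ± 0.067) and Asns, asparagine synthetase, lower by 0.49. Of 21 glycolysis and hypoxia genes 8 were higher and 6 lower, with Ndrg1, a hypoxia-responsive gene, higher by 2.45 and Vegfa, the vascular growth factor, by 0.88. Of 19 mesenchymal and positional transcription factors 7 were higher and 2 lower, with Prrx1 higher by 0.75, Meox1 lower by 1.28 and Tcf21, a marker of visceral stroma, not called (-0.031 ± 0.056).

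The same contrast in female mice was set against the male one by a test of the difference, over the 12 gonadal libraries. The male fold change differed from the female one for 2514 of 13481 genes (18.6%), above it for 1293 (9.59%) and below it for 1221 (9.06%). Of the 6276 male calls 1727 also differed between the sexes, 676 with the same sign and a larger male fold change, 410 with the same sign and a smaller one, and 641 with opposite signs. The split used the sign alone and did not ask for a called female change. Genes near 0 in females, such as Cxcl2, are therefore among the 641. In the interstitial progenitor list the male fold change was above the female one for 15 of 18 genes and below it for none, with a female median of 2.44 beside 3.46. Dpp4 and Pi16 stood at 2.74 and 3.22 in females, with differences of 1.90 ± 0.15 and 2.11 ± 0.14 (limma, adjusted p = 9e-09 and 6.5e-10). For Wnt2 the difference was not called (0.16 ± 0.50, limma, adjusted p = 0.87).

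**Figure D4:**
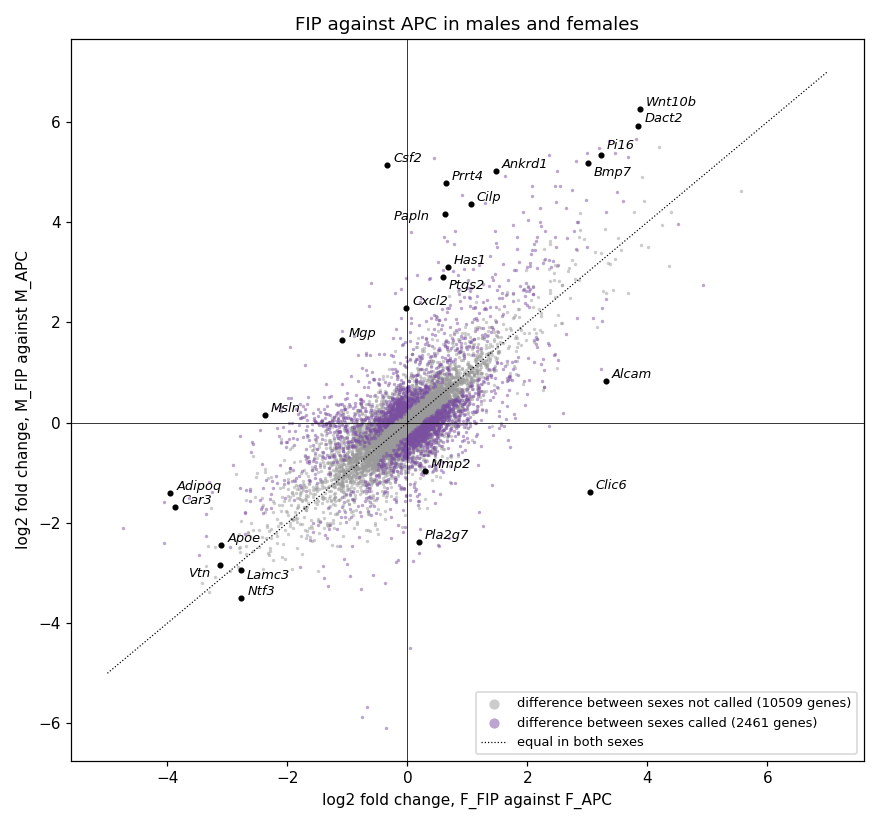
Each point is 1 of the 12970 genes tested in males. The horizontal axis is the log2 fold change of F_FIP against F_APC and the vertical axis that of M_FIP against M_APC, and the dotted line marks equal values. Violet genes (2461) had a called difference between the sexes. Csf2, Papln and Cxcl2 are far above the line, Clic6 and Alcam far below it, and Vtn and Lamc3 close to it.

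Inflammatory and matrix genes of male FIP were among those that differed. Csf2 had a female fold change of -0.33, with 15.1 ± 4.41 (SD, n = 3) in F_FIP and 19.3 ± 5.42 in F_APC, a difference of 5.46 ± 0.43 (limma, adjusted p = 8.8e-09). Ptgs2 had a female fold change of 0.59 and Cxcl2 of -0.026, with differences of 2.32 ± 0.17 and 2.32 ± 0.14. Has1 stood at 0.67 in females, a difference of 2.44 ± 0.10, whereas for Has2 the difference was not called (0.17 ± 0.10). Ankrd1, a stretch-responsive gene, Cilp, a cartilage matrix protein gene, Papln, which encodes the matrix protein papilin, and Prrt4 had the other large male excesses, with differences of 3.56 ± 0.48, 3.30 ± 0.19, 3.53 ± 0.22 and 4.15 ± 0.51. Mgp was higher in male FIP and had a female fold change of -1.08, a difference of 2.74 ± 0.17. Clic6, a chloride channel-like gene, was lower in male FIP (-1.38 ± 0.074) and had a female fold change of 3.04, a difference of -4.42 ± 0.19. Pla2g7, a lipoprotein-associated phospholipase, was lower in males by 2.37 with 0.19 in females, and Alcam, an adhesion molecule, had 0.84 ± 0.35 in males, not called, and 3.31 in females. Tmem132b and Necab1, which had called differences as well, did not pass the filter on low values in males.

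The male fold change was above the female one for all 36 ribosomal protein genes, whose female median was -0.10, and for 13 of 31 cell cycle genes, with 3 below. Marker genes of other cells moved with the sexes too. All 8 mesothelial genes tested had a male fold change above the female one, with Msln at -2.38 in females, and so had 9 of 11 endothelial genes. Adipoq, which is specific to adipocytes, stood at -3.95 in females and -1.404 in males. Adipocyte markers summed to 126 to 189 in F_FIP and 1193 to 1372 in F_APC, beside 381 to 427 and 915 to 1173 in males. Mesothelial markers summed to 3823 to 4257 in F_FIP and 4511 to 4687 in F_APC, the opposite order to the male sums of 3855 to 4176 and 2821 to 3176. Endothelial markers summed to 5769 to 6391 in F_FIP and 3435 to 4983 in F_APC, beside 6613 to 7748 and 4292 to 5036 in males. Most members went against the female sums. Of the 11 endothelial genes 8 were called lower and 1 higher in F_FIP, with a median female fold change of -1.16. The part of these cells in the differences between the sexes was not tested.

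The male inguinal populations, labelled as DPP4-positive and DPP4-negative APC, gave a further contrast, in which Dpp4 is the gene that names the groups. The gonadal and inguinal fold changes differed for 3950 of 13690 genes (28.9%), with the gonadal one above for 2143 (15.7%) and below for 1807 (13.2%). Without M_DPP4_neg replicate 1 the 3950 became 4881. The interstitial progenitor list had an inguinal median of 3.12 beside 3.46, with the gonadal fold change above for 8 of the 18 genes and below for 5. For Wnt10b the inguinal value was 6.19 and the difference was not called (0.066 ± 0.23, limma, adjusted p = 0.86), and for Edn1 it was 5.15 (-0.0027 ± 0.33, adjusted p = 1). Dact2 had an inguinal fold change of 2.68, a difference of 3.25 ± 0.22, and Dsp one of 0.72, a difference of 4.66 ± 0.73. Bmp7 went the other way, at 7.47 in inguinal cells, a difference of -2.31 ± 0.46. Cd9 was higher in gonadal FIP and had an inguinal fold change of -1.07, and Gfra2 one of -1.01, with differences of 5.01 ± 0.14 and 5.91 ± 0.49.

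**Figure D5:**
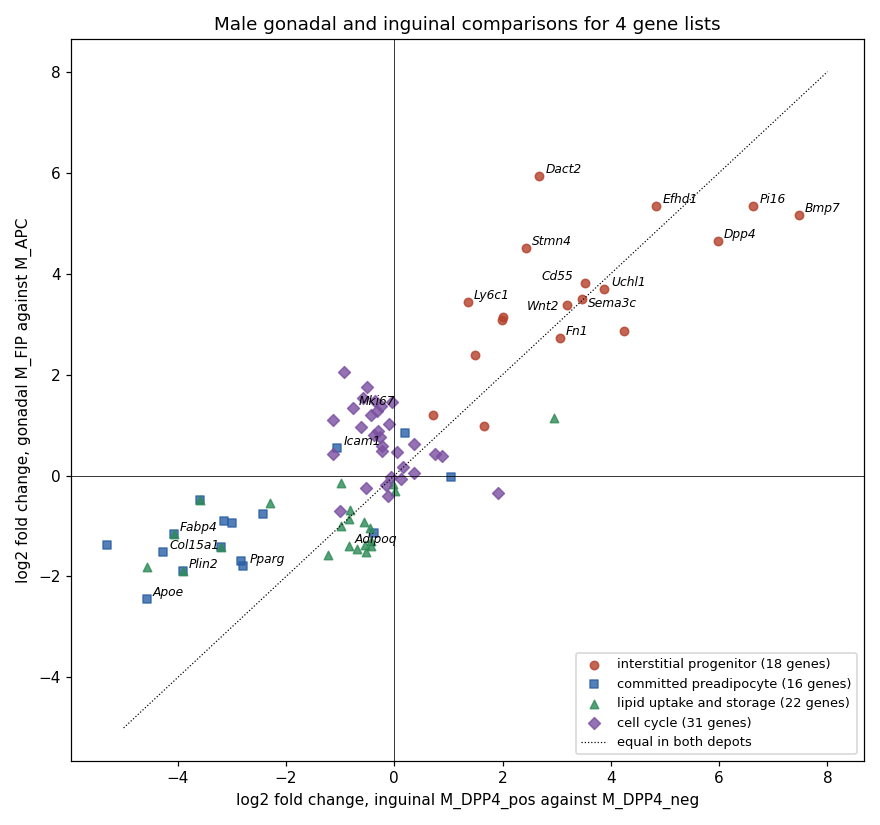
Genes of 4 lists, with the log2 fold change of inguinal M_DPP4_pos against M_DPP4_neg on the horizontal axis and that of gonadal M_FIP against M_APC on the vertical axis. The dotted line marks equal values. Interstitial progenitor genes are above 0 on both axes, Apoe and Plin2 are below 0 on both, and most cell cycle genes are above 0 only on the gonadal axis.

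Committed preadipocyte genes had lower fold changes in the inguinal contrast. The committed preadipocyte list had an inguinal median of -3.07 beside -1.15, and the gonadal fold change was above the inguinal one for 14 of 16 genes. Apoe, Plin2 and Fabp4 stood at -4.58, -3.91 and -4.08 in inguinal cells, with differences of 2.13 ± 0.20, 2.02 ± 0.10 and 2.92 ± 0.22. Of 23 collagen genes the gonadal fold change was above for 18 and below for 1, with Col15a1 at -4.27 in inguinal cells. Of 31 cell cycle genes it was above for 15 and below for 2, with Mki67 at -0.76. Aldh1a3, a retinaldehyde dehydrogenase, was at 3154, 3425 and 3554 in FIP and 3654, 3429 and 3423 in APC and was not called (-0.053 ± 0.058), with an inguinal fold change of 5.90. Itgb7, an integrin subunit, and Gpr1, a chemerin receptor, had inguinal fold changes of 5.61 and 7.88 beside 0.12, not called, and 3.19. Ltf, S100a8, S100a9, Ngp and Chil3, genes of neutrophils, and Mal2 and Bmp3 were named by the depot difference but did not pass the filter in the male gonadal libraries, with at most 8.11 for any of them in the 6 libraries. Depot and sort differ together between these contrasts and cannot be told apart.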

How the data were processed

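The values were deposited by the authors as 1 table of normalised counts for 24 libraries, a signal scale in which reads per gene were divided by 1 size factor per library. DESeq2 1.6.3 and featureCounts 1.4.6 are named in the submitters' processing notes, as are HISAT2 2.0.1, Trim Galore 0.4.1 and the builds GRCm38 and mm10. The role and settings of each, the annotation and the strand setting are not given in the sources used here, so reads of overlapping and antisense genes cannot be told apart. In the 6 male gonadal libraries 100% of values were whole multiples of 1 read (tolerance 0.01), from which reads were recovered. Rows with no gene symbol held 0.0639 to 0.0737% of the reads and were not tested, although 102 of them passed the filter on values. Of the tested symbols, 18 had been turned into dates.

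Genes reaching 10 in 3 or more of the 6 libraries were tested on log2(value + 1) with limma 3.58.1 (trend, R 4.3.3), with Benjamini-Hochberg adjustment over all of them. Differences between sexes and depots were interaction terms over 12 libraries each, with the same filter. The script was tested on simulated data with 12970 genes, of which 67, 67 and 66 were changed 1.5-, 2- and 4-fold. There limma recovered 65.7%, 98.5% and 100% of the changed genes, with 3 false calls. These rates were not obtained with as many changed genes as the 6276 called here. Nor were they obtained separately for genes with low values, so they do not give the recovery or false calls of the measured comparison. On recovered reads edgeR 4.0.16 called 6359 genes and DESeq2 1.42.0 called 5344. No interval was computed for single libraries, and floors of 3 reads cover counting error only.

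The members and gene lists were chosen with earlier results of these data known. Named genes were the 12 highest and 12 lowest called fold changes without overlap and with a mean of at least 100, the 6 largest differences of mean in each direction, the first 2 and up to 5 called members of each list, and 5 genes in each direction per interaction. A few genes that this rule names are not reported here. Alternatives were other pseudocounts, filters, scalings, models, a replicate block, a fit on all 24 libraries and leaving out each library. Coordinates and promoters were taken from RefSeq (GRCm38.p6), and 12852 of the tested genes (99.1%) had coordinates.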

Additional observations from a re-analysis of the deposited data

Results flagged for a closer look

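The fold change of FIP against APC differed between males and females for the genes that follow, by the interaction test in limma over the 12 gonadal libraries (Benjamini-Hochberg adjusted p under 0.05 over 13481 genes, of which 18.6% were called). Each value is the male minus the female log2 fold change, and 3 libraries stand behind each group. The markers of mesothelial, endothelial and adipocyte cells that moved with the same contrast are given in the report, and their part in these differences was not tested.

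Among progenitor and surface genes, the male value was above the female one for Efhd1 (2.98), Cd9 (2.18), Bmp7 (2.16), Pi16 (2.11), Dact2 (2.08), Dpp4 (1.90), Cd55 (1.53), Ly6c1 (1.32) and Tcf21 (0.52), and it was below for Alcam (-2.47) and Pdgfrb (-0.60). Among WNT, BMP and TGF-beta genes, the male value was above the female one for Sfrp4 (2.52), Wnt10b (2.39), Bmp2 (1.65), Sfrp2 (1.29), Bmp4 (0.75), Wnt11 (0.70) and Tgfb2 (0.66), and it was below for Nog (-1.57), Rspo3 (-1.22), Sox9 (-0.91), Nkd1 (-0.79) and Tgfbr2 (-0.29). Among CCN, IGF, hedgehog and other growth factor genes, the male value was above the female one for Ankrd1 (3.56), Pappa2 (2.32), Edn1 (2.16), Nov (1.85), Igfbp5 (1.50), Ctgf (0.95) and Vegfa (0.30), and it was below for Hhip (-2.59) and Igf1 (-0.56). Among matrix genes, the male value was above the female one for Papln (3.53), Cilp (3.30), Col8a1 (3.03), Mfap4 (2.91), Prg4 (2.79), Mgp (2.74), Has1 (2.44), Col12a1 (1.71), Col14a1 (1.25), Fn1 (1.20), Thbs2 (0.97), Aspn (0.90), Fbn1 (0.60) and Postn (0.49), and it was below for Mmp2 (-1.26) and Adamts16 (-0.54). Among immune genes, the male value was above the female one for Csf2 (5.46), Cxcl2 (2.32), Ptgs2 (2.32), Tnfrsf11b (2.25), Il6 (1.06), H2-K1 (1.003), Icam1 (0.98), Il33 (0.93), Nfkbie (0.90), C3 (0.73), Cxcl1 (0.56), Cxcl14 (0.47) and H2-Q4 (0.33).

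Among nerve-related genes, the male value was above the female one for Sema3e (2.40), Sema3d (1.05), Islr2 (0.82), Sema3c (0.50) and Ntn4 (0.35). Among adipogenesis, lipid, retinoid and steroid genes, the male value was above the female one for Adipoq (2.55), Fabp4 (1.10), Apoe (0.66) and Rdh10 (0.31), and it was below for Aldh1a3 (-1.61), Dio3 (-1.09), Aldh1a1 (-0.96), Hsd11b1 (-0.96), Plin2 (-0.78), Klf15 (-0.53), Klf3 (-0.35) and Fasn (-0.29). Among cell cycle, ribosomal and stress genes, the male value was above the female one for Nr4a1 (1.69), Ndrg1 (1.13), Top2a (0.93), Mki67 (0.89), Rpl5 (0.74), Fos (0.49) and Rplp0 (0.41), and it was below for Psat1 (-0.62), Hmox1 (-0.55) and Gpx3 (-0.49). Among markers of other cells, the male value was above the female one for Msln (2.52), Rgs5 (1.46), Cdh5 (1.04), Pecam1 (0.97), Kdr (0.71), Steap4 (0.54) and Wt1 (0.33), and it was below for Lmod1 (-1.67). Among other genes, the male value was above the female one for Prrt4 (4.15), Dsp (2.39), Trim30e-ps1 (2.28), Fam167a (2.26) and Duoxa1 (1.63), and it was below for Clic6 (-4.42), Pla2g7 (-2.56), St8sia6 (-2.11), Gatm (-1.94), Lrrn1 (-1.70), Pde11a (-1.44), Itgb7 (-1.399) and Trf (-0.43).

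Some of these differences lost their call under another setting. In a fit on all 24 libraries 28 of the 109 were not called, namely Adamts16, Apoe, Cxcl14, Dio3, Fasn, Fbn1, Fos, Gpx3, H2-Q4, Islr2, Itgb7, Kdr, Klf15, Klf3, Lmod1, Lrrn1, Mki67, Ntn4, Pecam1, Rdh10, Sema3c, St8sia6, Tcf21, Tgfbr2, Top2a, Trf, Vegfa and Wt1. Leaving out 1 library ended the call of 12, with these values without it. Adamts16 lost it without M_FIP replicate 1, M_APC replicate 3, F_FIP replicate 1 or 2, F_APC replicate 1 or 2 (-0.51 to -0.44). Dio3 lost it without F_FIP replicate 1 (-0.90). Fasn lost it without M_FIP replicate 1 or 3, M_APC replicate 1 or 3, F_FIP replicate 1 or 2, F_APC replicate 1 or 3 (-0.30 to -0.22). Itgb7 lost it without M_FIP replicate 1, 2 or 3, M_APC replicate 2 or 3, F_FIP replicate 1 or 2, F_APC replicate 1 or 2 (-1.54 to -1.11). Kdr lost it without M_FIP replicate 1 or 2, M_APC replicate 2, F_FIP replicate 3, F_APC replicate 2 or 3 (0.51 to 0.72). Klf15 lost it without M_FIP replicate 1 or 2, M_APC replicate 2, F_FIP replicate 2 or 3, F_APC replicate 2 (-0.53 to -0.43). Klf3 lost it without F_FIP replicate 2 (-0.32). Ntn4 lost it without M_FIP replicate 1 or 2, M_APC replicate 1 or 2, F_FIP replicate 1 or 2, F_APC replicate 3 (0.25 to 0.36). Rdh10 lost it without M_FIP replicate 2 or 3, M_APC replicate 1, F_FIP replicate 1 (0.26 to 0.30). Tgfbr2 lost it without M_FIP replicate 1, 2 or 3, M_APC replicate 1 or 3, F_FIP replicate 1, 2 or 3, F_APC replicate 3 (-0.30 to -0.19). Trf lost it without M_FIP replicate 1 or 2, M_APC replicate 1, 2 or 3, F_FIP replicate 1, 2 or 3, F_APC replicate 2 (-0.45 to -0.33). Vegfa lost it without M_FIP replicate 1 (0.27).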

How the results depend on the processing

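Across pseudocounts, filters, scalings and models, 5207 to 6381 genes were called in place of 6276, and 5310 (without M_FIP replicate 2) to 6210 (without M_APC replicate 2) when 1 library was left out. Of the calls, 45.5 to 52.8% were higher in FIP. With a 2-fold minimum added, 1434 genes passed. The difference between sexes was called for 1580 genes in place of 2514 in a fit on all 24 libraries, and for 1891 to 2559 when 1 library was left out. The depot difference was called for 3280 (without M_FIP replicate 2) to 4881 (without M_DPP4_neg replicate 1) genes in place of 3950 when 1 library was left out. Members of the lists called were 578, and 542 to 576 with 1 library left out. Each of the 24 leading genes kept its call in all of these settings. Gsn had the highest value in every library, so quantile normalization set its fold change to 0 by construction.

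The replicate numbers are shared between the groups, and same-numbered libraries deviated from their group means with r of 0.0486, -0.0359 and 0.0112. Deviations from means of 3 libraries cannot show whether same-numbered libraries came from the same animals, so no conclusion on pairing is drawn. With the replicate block 6292 genes, 581 list members, 2549 sex differences and 3655 depot differences were called.

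Some list counts moved by over 1.5 times. With a minimum value of 50, 10521 genes were tested in place of 12970, and members with lower values could not be called. The causes of the other moves were not tested. The 2 lower WNT ligands became 1 with DESeq2, all 24 libraries, quantile normalization or no filter, and 0 with a minimum value of 50. The 11 lower macrophage genes became 3 with all 24 libraries and 6 with a minimum of 50 or without the trend. The 20 higher cell cycle genes became 12 with a minimum of 50, and the 5 lower became 3 with DESeq2 or without the trend. The 5 lower WNT antagonists became 2 with all 24 libraries, and the 8 lower matrix proteases became 5 without the trend. Oxidative phosphorylation counts moved between 0 and 5.

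Calls of single genes also moved. Alcam became called in 5 settings, Duoxa1 lost its difference between sexes with a pseudocount of 10 (0.26), and the difference was lost by Itgb7, Fasn, Trf and Tgfbr2 in 13, 12, 11 and 11 settings, by Ntn4 in 9 and by Adamts16, Kdr and Klf15 in 8 each. Depth limits genes near 10 counts, where 1 read is worth 0.813 to 1.16.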

Other observations

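A few genes with low values had large differences and lie outside the rule for named genes. They were chosen after their values were seen and carry no test. Krtdap, a keratinocyte differentiation gene, was at 34.0, 59.8 and 32.5 in the FIP libraries and had 0 reads in APC, at least 37.5-fold higher against a floor of 3 reads over the group. It reached 295 to 405 in the inguinal M_DPP4_pos libraries and 41.8 to 71.5 in F_FIP. Bco1, which cleaves beta-carotene, was at 84.1, 83.8 and 89.4 in FIP, with 3 reads in all APC libraries together, and at 53.7 to 62.3 in F_FIP. Pld5 was at 60.5, 57.1 and 73.1 in FIP, with 2 reads in APC, and at 1.66 to 5.12 in F_FIP. Mgam, a maltase gene, was at 145, 220.3 and 244 in FIP against 3.22, 5.80 and 9.05 in APC, and at 22.9 to 29.0 in F_FIP. Hdc, the enzyme of histamine synthesis, was at 17.0, 25.0 and 30.1 in FIP and 33.3, 78.8 and 65.6 in APC. In F_APC it was at 82.2 to 97.5, where the mast cell protease gene Tpsb2 lay between 2.77 and 3.57.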
